A study of Mus musculus with 8 samples.

Results

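The genes described here are 6 mouse genes of the chromosome 16 region that is syntenic to human 22q11.2: Slc25a1, Mrpl40, Prodh, Txnrd2, Tango2 and Snap29. They were taken by symbol, as a set of genes grouped under mitochondria, from the 32285 features of the count matrices, and all 6 were found. Single-nucleus RNA-seq was run on the petrous temporal bone (PTB), which houses the lobules, and on the paraflocculus and flocculus (PF/F), lobules of the vestibulo-cerebellum. The mice were WT or heterozygous for Tbx1 (Tbx1+/-), a T-box transcription factor gene of the same region, and were taken at postnatal day 5.5. There were 2 WT and 2 Tbx1+/- libraries per tissue, 8 in all, and each library pooled tissue from 5 mice, so variation between single animals is not seen. The Tbx1+/- line had been backcrossed to C57BL/6J, WT mice were littermates, and the study used males and females. The genotype label names Tbx1 alone and no Cre, so the heterozygous state is not limited to a cell type, and the mice are not a model of the loss of the 6 genes.

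Of the 6 proteins, 4 work inside mitochondria. Slc25a1 is the citrate carrier of the inner membrane and passes citrate to the cytosol, where it feeds lipid synthesis. Prodh (proline dehydrogenase) starts the breakdown of proline, Txnrd2 is the thioredoxin reductase of the matrix, and Mrpl40 belongs to the large subunit of the mitochondrial ribosome. The label fits the other two less well: Tango2 has been tied to mitochondria and to lipid handling without a settled function, and Snap29 is a SNARE protein of membrane fusion, best known from the fusion of autophagosomes with lysosomes. These genes are known from the 22q11.2 deletion, which removes 1 copy of each, and loss of both copies of several of them causes metabolic or neurological disease.

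All 6 genes lie on chromosome 16 (GRCm38), within 1185 kb of the start of Tbx1. Slc25a1 (chr16:17925223-17928219, minus strand) overlaps no other gene. Mrpl40 (chr16:18872018-18876862, minus strand) overlaps Gm28539, Prodh (chr16:18060357-18090203, minus strand) overlaps Dgcr6, and Snap29 (chr16:17405986-17430827, plus strand) overlaps Pi4ka, in each case on the opposite strand. Txnrd2 lies at chr16:18426384-18479073 on the plus strand. Tango2 (chr16:18300825-18348103, minus strand) holds Mir185 on its own strand. Reads were counted with introns on the sense strand, and reads of Tango2 introns and of the Mir185 precursor cannot be told apart there.

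The promoters of Tango2 and Slc25a1 are shown because these genes stood at opposite ends in osteoclasts, Tango2 with its highest PTB level there and Slc25a1 with its lowest. Each sequence is the 250 bases before the RefSeq start (GRCm38.p6, minus strand, chr16:18348099-18348348 for Tango2 and chr16:17928220-17928469 for Slc25a1). Capitals mark CCAAT boxes (CCAAT or ATTGG), GC boxes (GGGCGG or CCGCCC) and the E-box CACGTG.
Tango2: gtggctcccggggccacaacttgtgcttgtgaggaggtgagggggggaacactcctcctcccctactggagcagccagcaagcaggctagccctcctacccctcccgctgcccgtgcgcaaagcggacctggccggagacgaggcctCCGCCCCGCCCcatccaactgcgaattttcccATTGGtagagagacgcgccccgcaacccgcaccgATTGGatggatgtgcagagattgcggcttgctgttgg
Slc25a1: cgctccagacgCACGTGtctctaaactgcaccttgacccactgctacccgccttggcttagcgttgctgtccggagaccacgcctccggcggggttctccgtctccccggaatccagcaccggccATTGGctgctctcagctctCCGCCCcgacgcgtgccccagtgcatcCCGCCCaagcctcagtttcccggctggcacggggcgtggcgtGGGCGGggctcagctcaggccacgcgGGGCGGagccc
The Tango2 window shown is that of 1 of 3 RefSeq starts of the gene. It held 2 CCAAT boxes and 2 GC boxes and had a GC content of 65.2%. The Slc25a1 window held 1 E-box, 1 CCAAT box and 4 GC boxes, with a GC content of 70.0%. Over 32851 mouse promoters of this length, 33.8% held a CCAAT box, 32.7% a GC box and 6.02% the E-box, so both common boxes are widespread. Neither of the windows shown held the letters of the AP-1 motif TGANTCA (6.75% of promoters), the PU.1 motif GAGGAAGT (2.44%) or the ETS motif CCGGAAGT (2.88%), searched on both strands. The window of another Tango2 start, which is not shown, held the ETS letters. These matches are letters in a window, and binding was not measured.

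The PTB libraries held 66835028 to 88677309 UMIs and the PF/F libraries 44713226 to 60627200. The deposited annotation named 31076 PTB nuclei in 15 types, all of them chondrocyte, connective tissue, osteoblast or osteoclast classes, and 48237 PF/F nuclei in 16 types. The level of a gene in a type is given as CPM, its UMIs per 1000000 UMIs of all genes after both were summed over the nuclei of that type in a library, in the order WT and Tbx1+/- of batch 1, then WT and Tbx1+/- of batch 2. Most types held their markers above the median of the other types, but the connective tissue class CT4 did so for 0 of 3 and the chondrocyte progenitor class CP6 for 1 of 3. CP1, CP3, CP5 and CT3 did so for 2 of 3, and the class hypertrophic chondrocyte/Osteoblasts for 3 of 4. In CT3, Dcn stood at 158 CPM against a median of 284 CPM. Acan stood at 49.5 CPM in CP3 and 49.1 CPM in CP5, against 59.7 CPM. In the PF/F, the interneuron class GABA.interneuron did so for 2 of 3, with Pax2 at 10.6 CPM against a median of 18.2 CPM. The early rhombic lip class RL.early also did so for 2 of 3, with Mki67 at 53.5 CPM against 67.9 CPM. The PF/F class labelled Progenitors held only 152 nuclei with large UMI totals, and its leading genes were Gm49678, Cpne4, Meis2, Tafa1 and Lhx9. No marker list was fixed for this class, so its label was not checked, and the proliferation gene Mki67 stood there at 21.2 CPM, against 252 CPM in GNP. Pairs of libraries shared 0.171% to 0.503% of their barcodes.

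Over all annotated nuclei of a tissue the 6 genes were found in every library. These sums leave out the other barcodes, and in the PTB they hold only the skeletal classes named above. They rest on 33515253 to 43752949 UMIs per PTB library and 37700625 to 52902902 per PF/F library. Tango2 lay at 48.3, 55.4, 55.8 and 55.1 CPM in the PTB and at 32.9, 33.6, 35.1 and 35.05 CPM in the PF/F. Prodh lay at 11.9, 10.1, 13.5 and 12.9 CPM in the PTB, below every PF/F library, which held 40.2, 32.6, 41.5 and 38.9 CPM. Mrpl40 was also lower in the PTB, with 15.7, 15.0, 19.4 and 19.5 CPM against 30.7, 27.1, 23.98 and 27.2 CPM, and the groups did not overlap. Tango2 and Snap29 did not overlap between the tissues either, but were higher in the PTB. The share of all genes without overlap was not counted. The tissues were separate dissections without a shared scale for cell make-up, and these differences were not tested.

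Txnrd2 lay between 9.71 and 11.16 CPM in the PTB and between 7.75 and 10.1 CPM in the PF/F, and Snap29 between 11.6 and 13.5 CPM and between 8.67 and 10.4 CPM. Slc25a1 stood apart by batch in the PTB, since its batch 1 libraries held 9.81 and 12.1 CPM while those of batch 2 held 5.43 and 6.43 CPM. Batch 2 was therefore lower by a log2 difference of -0.85 in WT and -0.91 in Tbx1+/- libraries. The summed muscle markers of these PTB libraries were also lower in batch 2, with 245, 242, 96.7 and 69.8 CPM. Within each batch they were lower in the Tbx1+/- library, where Slc25a1 was higher. Erythroid (876, 631, 621 and 419 CPM) and neuron markers (30.8, 23.7, 16.1 and 19.4 CPM) were lower in batch 2 too, but osteoclast and immune markers were so in WT libraries only. The part of these cells in the Slc25a1 values was not tested.

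**Figure D1:**
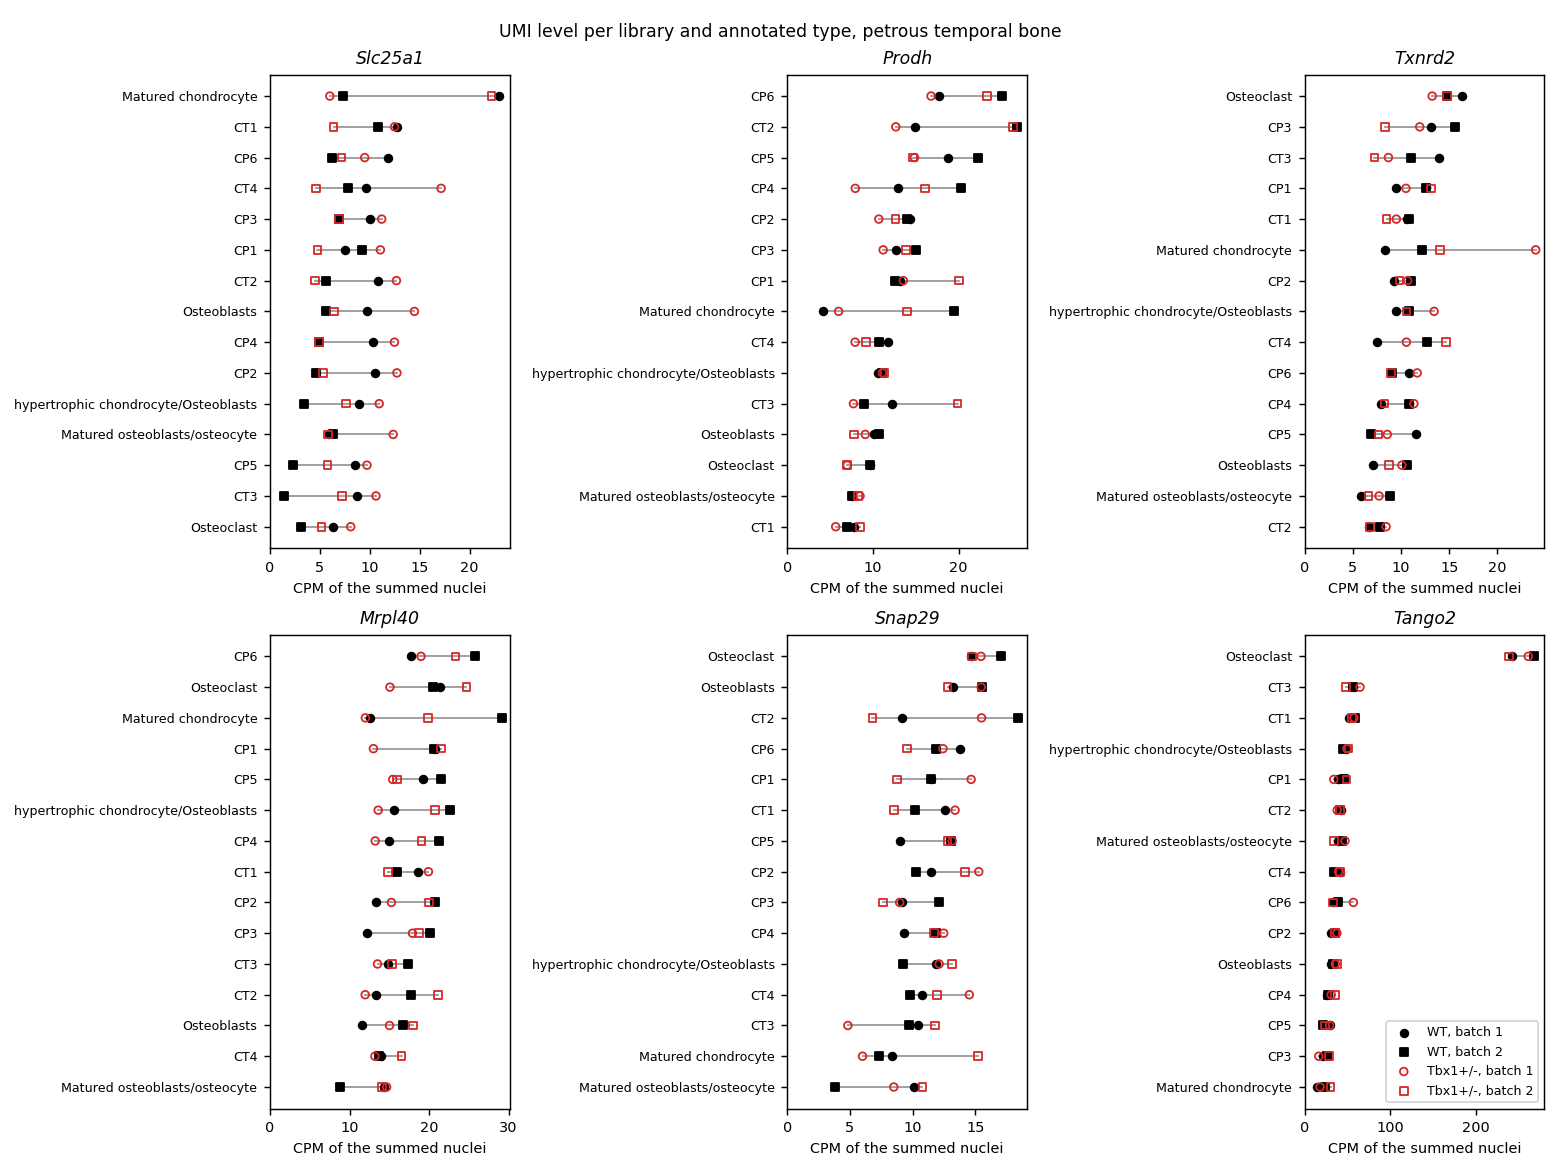
Level of each of the 6 genes in the 15 annotated PTB types, in CPM of the summed nuclei on a linear axis, with 1 point per library (colour for genotype, shape for batch). Tango2 in osteoclasts sits between 239 and 268 CPM, apart from all other types, while the points of neighbouring types overlap for the other genes.

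Cell types were compared by setting each type against the unweighted mean of the other types of its tissue, with edgeR's quasi-likelihood test on the summed UMIs of all 4 libraries and the library as a block. A gene was called when its Benjamini-Hochberg adjusted p was under 0.05 and its fold above 1.5. The types had been made by clustering the same counts, so these p-values describe how separate the levels were and are no independent test. In the PTB, 6 of 90 gene and type pairs of the 6 genes (6.67%) were called higher and 4 (4.44%) lower, against 11% and 9.53% of all gene and type pairs. Of the PF/F pairs, 15 of 96 (15.6%) were called higher and 8 (8.33%) lower, against 16.1% and 10.3%. As a set, then, the 6 genes were called no more often than genes in general, and what follows concerns single genes.

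Tango2 was the exception in size. In osteoclasts, the bone-resorbing cells of the myeloid lineage, its level was 242, 261, 268 and 239 CPM (2629 UMIs in 1559 nuclei), a mean of 252 ± 14.2 (SD, n = 4). The libraries of all other PTB types held 14.6 to 64.7 CPM, so the groups did not overlap, and the mean of the 4 libraries was 3.90-fold over the highest other library and 6.33-fold over the median of the other types. The log2 difference was 2.88 (SE 0.0546, edgeR quasi-likelihood adjusted p = 7.13e-51), and 19.8% of all 14926 genes tested were called higher in osteoclasts. The 12 alternatives gave 2.83 to 2.94, each of them called.

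Osteoclast markers were also counted in the other PTB types. The summed level of the markers Acp5, Ctsk, Mmp9 and Ocstamp was 8757, 6453, 6365 and 7190 CPM in osteoclasts and 1151, 947, 557 and 840 CPM in the other types. Tango2 in those other types was 37.1, 40.6, 38.1 and 39.6 CPM. CT4 held the most osteoclast marker counts of the other types, 2068 CPM, with Tango2 at a mean of 39.2 CPM. The part of these marker counts in the level of Tango2 outside osteoclasts was not tested.

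Among the remaining PTB types, Tango2 was called lower in the matured chondrocytes (14.6, 17.98, 24.3 and 30.4 CPM; log2 difference -0.96, SE 0.191, edgeR adjusted p = 3.90e-05). It was also called lower in the progenitor classes CP3 (-0.92, SE 0.114) and CP5 (-0.70, SE 0.109). The connective tissue classes CT3, with 56.5, 64.7, 56.8 and 47.9 CPM, and CT1, with 51.6, 57.7, 58.5 and 55.2 CPM, came next after osteoclasts in order, and their ranges overlapped. In that order of WT levels, the WT libraries overlapped for 11 of 14 neighbouring pairs.

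In the PF/F, Tango2 was highest in the class labelled Progenitors, a label not checked against markers, with 97.2, 83.7, 98.97 and 78.5 CPM (log2 difference 1.47, SE 0.176, edgeR adjusted p = 2.81e-11). Immune cells, which share the myeloid lineage with osteoclasts, followed with 87.5, 67.2, 69.7 and 67.9 CPM (0.96, SE 0.181, edgeR adjusted p = 8.47e-06), and the 2 classes overlapped. The interneuron class GABA.interneuron held 52.1, 38.8, 59.2 and 43.1 CPM and was called higher by 0.69 (SE 0.151). The calls in the Progenitors class, Immune cells and GABA.interneuron were kept when 1 library was left out, but each was lost under some other alternative. Without the 8% of nuclei with the most UMIs, the WT level of the Progenitors class was 68.7 CPM instead of 98.1, on 8 and 6 nuclei.

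Tango2 was called lower in 4 PF/F classes. The early rhombic lip class RL.early had 20.4, 14.3, 13.5 and 16.4 CPM (log2 difference -1.12, SE 0.220), the granule neuron progenitors (GNP) 20.4, 25.6, 24.99 and 25.1 CPM (-0.63, SE 0.105) and Astroglia 21.6, 21.4, 23.5 and 24.5 CPM (-0.60, SE 0.105). Without WT replicate 1 the calls were lost in GNP (-0.55) and Astroglia (-0.54), and that in Astroglia was also lost without Tbx1+/- replicate 1 (-0.56). The differentiated granule neurons, with 39.9, 38.8, 40.6 and 40.6 CPM, lay above all 4 GNP libraries. The share of all genes that set GNP and differentiated granule neurons apart in this way was not counted. Endothelial cells were called lower (-0.98) on 15 UMIs, and not without WT replicate 1 (-0.74) or without Tbx1+/- replicate 2 (-0.50).

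Txnrd2 was the other member called higher in osteoclasts, with 16.3, 13.2, 14.7 and 14.7 CPM (153 UMIs; log2 difference 0.65, SE 0.121, edgeR adjusted p = 3.10e-06). Its libraries there overlapped those of the class CP3, with 13.1, 11.9, 15.6 and 8.31 CPM. Without WT replicate 1 the difference was 0.58, just under the fold limit, so this call rests on that library. Among PF/F classes, Txnrd2 was called higher in GABA.interneuron, with 12.2, 23.3, 15.99 and 16.4 CPM (1.00, SE 0.261, edgeR adjusted p = 0.000912). It was also called in the Progenitors class (0.91, edgeR adjusted p = 0.0439), on 21 UMIs, and without the 8% of nuclei with the most UMIs this difference was -1.29, in a class then left with 8, 2, 6 and 24 nuclei. It was also not called without WT replicate 1 (0.59) or WT replicate 2 (0.80).

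**Figure D2:**
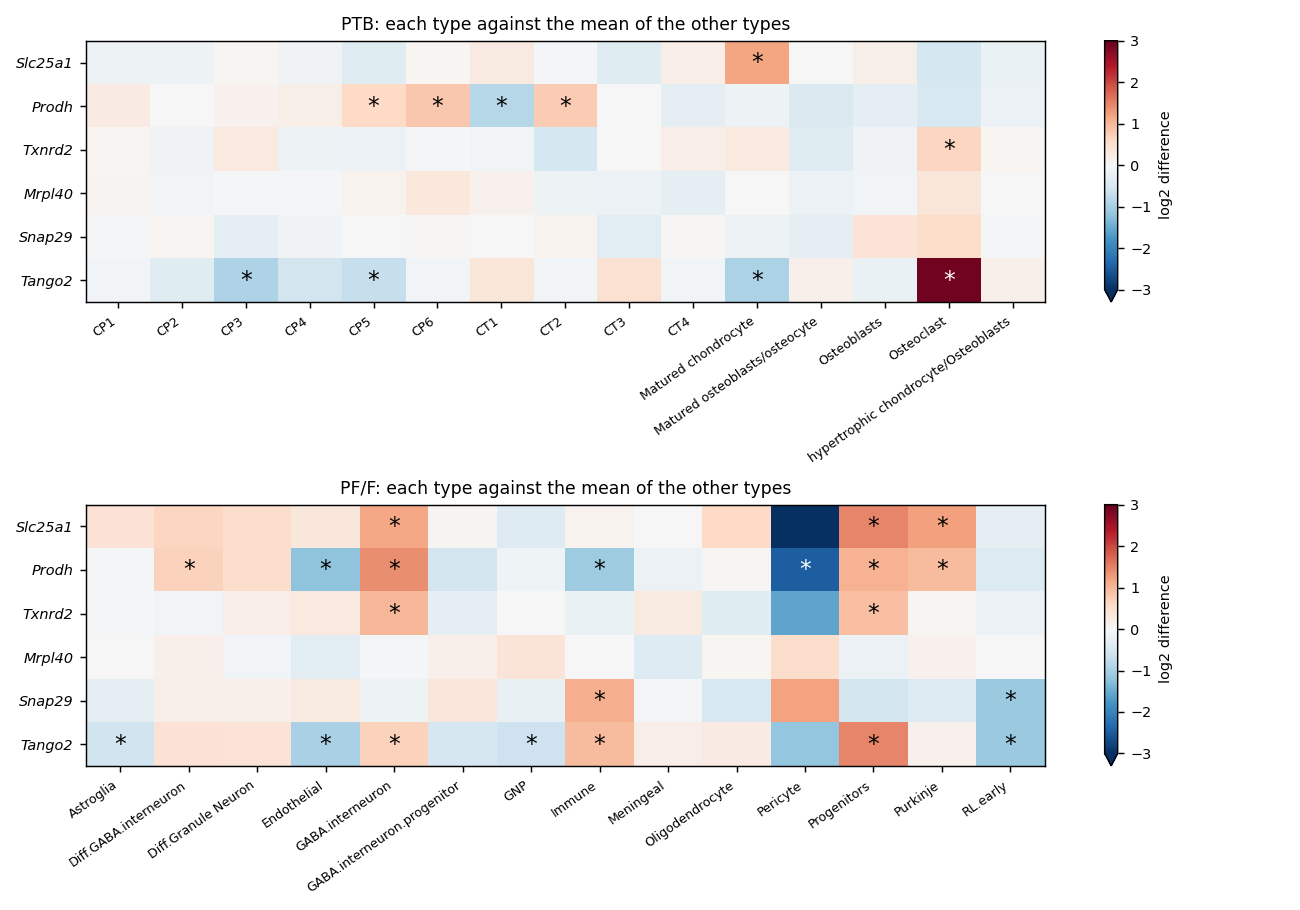
Log2 difference of each type from the unweighted mean of the other types of its tissue, for the 6 genes in all PTB and 14 PF/F types (colour, with darker shades of red higher and of blue lower and the scale ending at 3 in either direction; stars mark called pairs). Tango2 in osteoclasts, at 2.88, is the strongest called cell; the higher calls of Prodh in the PF/F lie on neuronal classes and the Progenitors class, and the value for Slc25a1 in pericytes comes from 0 UMIs and is no bound.

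Snap29 was spread evenly in the PTB and was called in no type there. Its highest mean was in osteoclasts, at 14.6, 15.4, 17.0 and 14.7 CPM, where the log2 difference was 0.55 (SE 0.132, edgeR adjusted p = 0.000212), under the fold limit. Osteoblasts, at 13.2, 15.5, 15.5 and 12.8 CPM, overlapped them (0.41, SE 0.0931). In the PF/F it was called higher in Immune cells, at 27.2, 13.4, 19.4 and 29.7 CPM (31 UMIs; 1.10, SE 0.308, edgeR adjusted p = 0.00286), and lower in RL.early (-1.11, 12 UMIs). Without Tbx1+/- replicate 2 both calls were lost (0.86 and -0.89), and without WT replicate 1 that in RL.early (-0.92). Both osteoclasts and PF/F immune cells thus sat at the upper end for Snap29 as for Tango2, but the Snap29 counts were small. In the PF/F the pericytes had a higher WT mean of Snap29 than Immune cells, on few UMIs. Txnrd2 had its highest PTB WT mean in osteoclasts too, but was at the lower end in Immune cells, with a WT mean of 4.53 CPM on few UMIs.

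Prodh was called higher in several neuron classes of the PF/F. Its highest level was in GABA.interneuron, with 72.0, 85.3, 75.1 and 69.8 CPM (218 UMIs; log2 difference 1.40, SE 0.131, edgeR adjusted p = 1.21e-15). Purkinje cells, the output neurons of the cerebellar cortex, held 65.2, 41.5, 51.5 and 48.3 CPM (0.95, SE 0.0999). The Progenitors class (1.04, SE 0.189) and Diff.GABA.interneuron (0.68, SE 0.0930) were called higher too. Leaving out 1 library kept these calls but moved the difference between 0.85 and 1.51 in Purkinje cells, 0.84 and 1.605 in the Progenitors class and 0.60 and 1.18 in Diff.GABA.interneuron. The highest value of each was that without WT replicate 2, the library that held both Prodh UMIs of the pericytes. The call in the Progenitors class was lost under some other alternative. Immune cells were called lower, with 24.1, 22.4, 15.5 and 14.8 CPM (-1.06, SE 0.271), as were endothelial cells and pericytes on 12 and 2 UMIs. The call in Immune cells was lost without WT replicate 2 (-0.47), and those in endothelial cells and pericytes were each lost in 2 of the 4 runs that left out 1 library, without Tbx1+/- replicate 2 in both (-0.75 and -1.90), without WT replicate 2 in endothelial cells (-0.94) and without Tbx1+/- replicate 1 in pericytes (-2.08).

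The 3 interneuron classes did not overlap in Prodh, and the share of all genes that set these classes apart in this way was not counted. The class GABA.interneuron.progenitor held 25.04, 21.2, 22.2 and 23.7 CPM, below all libraries of Diff.GABA.interneuron (53.1, 37.9, 48.8 and 47.1 CPM), which in turn lay below those of GABA.interneuron. The median UMIs per nucleus in a library were 5259 to 8069 in GABA.interneuron, 5653 to 8533 in Purkinje cells and 2572 to 3483 in differentiated granule neurons. Differentiated granule neurons held Prodh at 40.5, 34.999, 44.1 and 42.9 CPM (0.53, under the fold limit). The part of depth in these levels was not tested.

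In the PTB the libraries of all types held Prodh at 4.17 to 26.9 CPM. CP6 held 17.7, 16.8, 25.03 and 23.3 CPM (log2 difference 0.80, SE 0.148, edgeR adjusted p = 9.11e-06) and CT2 14.9, 12.7, 26.9 and 26.4 CPM (0.76, SE 0.161). In CT2 the batch 2 libraries were both above the batch 1 libraries. CT1 was called lower with 7.84, 5.65, 7.0 and 8.50 CPM (-0.85, SE 0.171), and CP5 was called higher by 0.59, close to the fold limit, but not without WT replicate 1 (0.51) or WT replicate 2 (0.54). Osteoclasts, with 9.61, 6.99, 9.68 and 7.0 CPM, were at the lower end (-0.48, SE 0.161, edgeR adjusted p = 0.00729, not called).

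**Figure D3:**
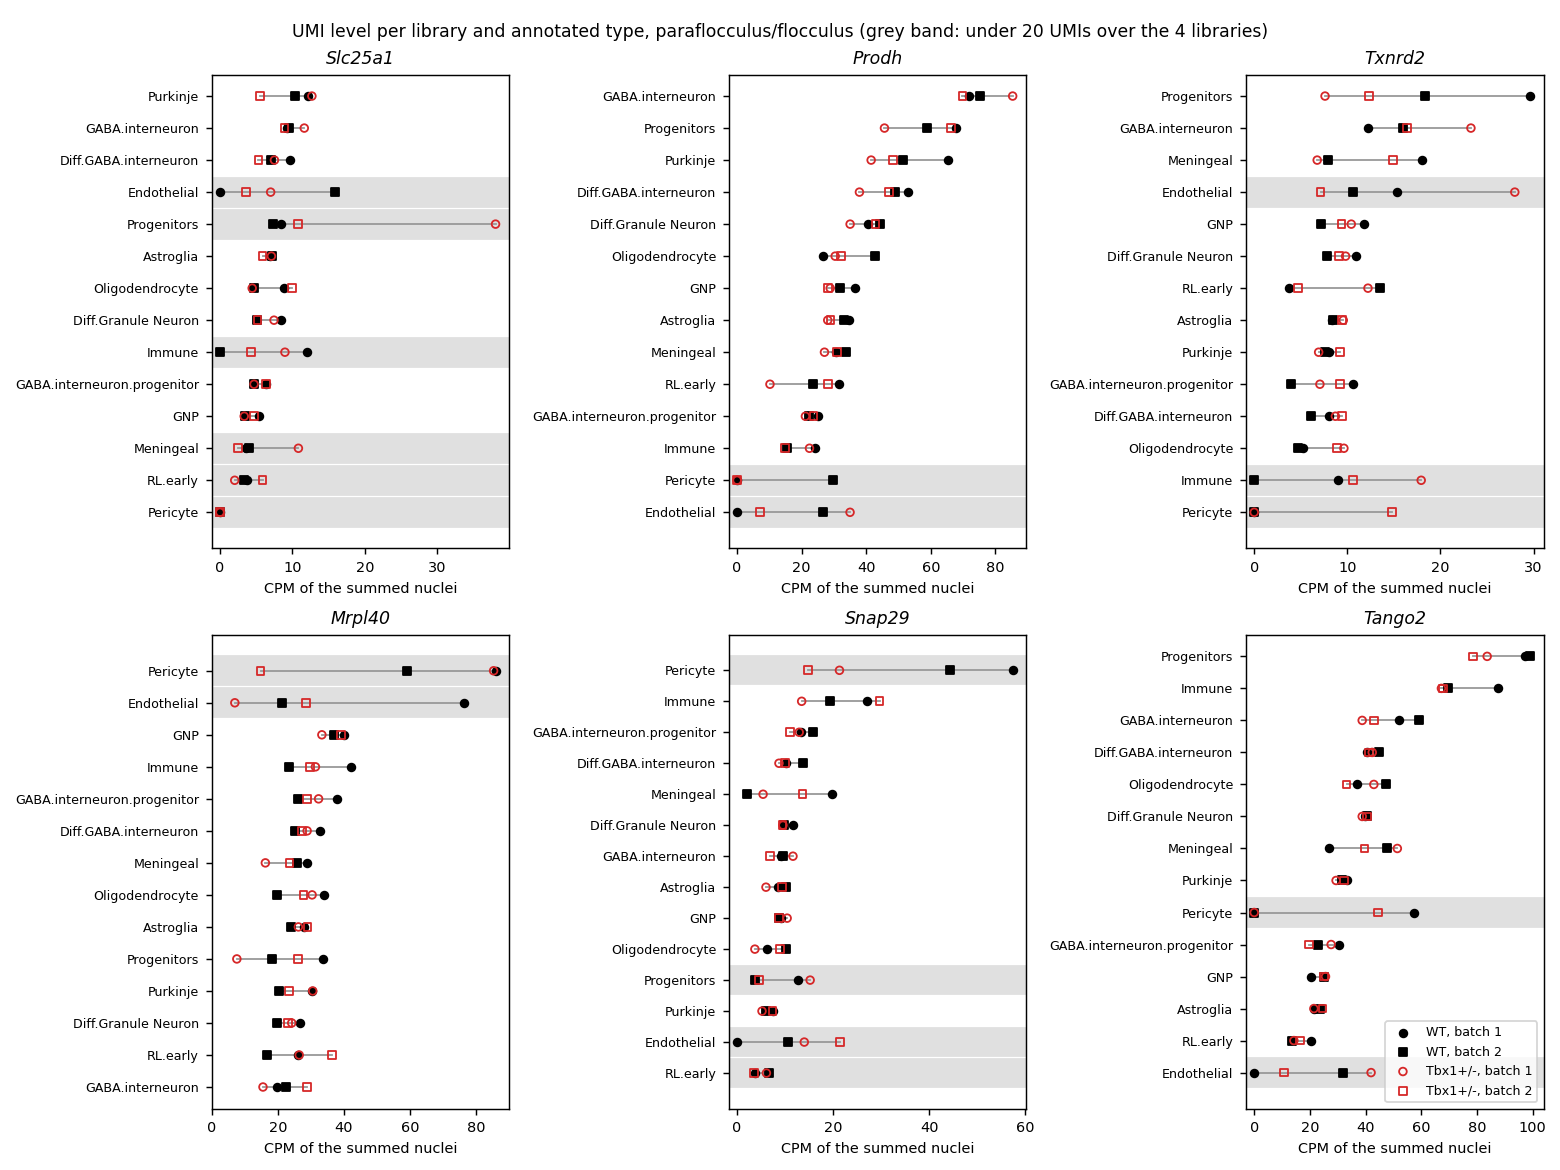
Level of each of the 6 genes in 14 of the 16 annotated PF/F types, in CPM of the summed nuclei on a linear axis, with 1 point per library and grey bands for types under 20 UMIs of that gene over the 4 libraries. Prodh runs highest in GABA.interneuron at 69.8 to 85.3 CPM, and the wide scatter in pericytes and endothelial cells comes with few UMIs.

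Slc25a1 was called higher in 3 PF/F classes. Purkinje cells held 12.1, 12.7, 10.4 and 5.54 CPM (90 UMIs; log2 difference 1.23, SE 0.286, edgeR adjusted p = 0.000139) and GABA.interneuron 9.19, 11.6, 9.59 and 8.89 CPM (28 UMIs; 1.15, edgeR adjusted p = 0.0251). The Progenitors class was called on 16 UMIs, with 8.45, 38.0, 7.33 and 10.8 CPM, and its difference was -0.45 instead of 1.47 without the 8% of nuclei with the most UMIs, where 8, 2, 6 and 24 nuclei were left. Without Tbx1+/- replicate 2 neither GABA.interneuron (1.09) nor the Progenitors class (1.52) was called, and the calls were also lost without WT replicate 2 in GABA.interneuron (1.19) and without Tbx1+/- replicate 1 in the Progenitors class (1.16). The 74 pericytes held 0 UMIs of Slc25a1, which allows a pooled level of up to 13.8 CPM, above the Purkinje libraries, so this zero cannot be read as low expression. It nevertheless enters the mean of the other types.

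With pericytes left out of the PF/F comparison, an alternative chosen after seeing the data, Slc25a1 stood at 0.74 in Purkinje cells (edgeR adjusted p = 0.000786) and was no longer called in GABA.interneuron (0.66, edgeR adjusted p = 0.0899) or in the Progenitors class (0.99, edgeR adjusted p = 0.0598). Prodh kept its calls in GABA.interneuron (1.21), Purkinje cells (0.78) and the Progenitors class (0.86), and lost that in Diff.GABA.interneuron (0.52). Txnrd2 stayed called in GABA.interneuron (0.88) but not in the Progenitors class (0.79, edgeR adjusted p = 0.0741). All 7 Tango2 calls in the PF/F were kept.

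In the PTB, Slc25a1 was lowest in osteoclasts, with 6.27, 8.09, 3.10 and 5.16 CPM (59 UMIs; log2 difference -0.52, SE 0.202, edgeR adjusted p = 0.0208), under the fold limit. It was called higher only in matured chondrocytes, with 23.0, 5.99, 7.28 and 22.2 CPM (34 UMIs; 1.18, SE 0.289, edgeR adjusted p = 0.000766). There 2 libraries, 1 of each genotype and batch, were high and the other 2 were within the range of other types. Without Tbx1+/- replicate 2 the difference was 0.71 and not called. The WT libraries overlapped for all 14 neighbouring pairs in the order of PTB types.

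Mrpl40 was the most even of the 6 genes and was called in no type of either tissue. In the PTB its highest mean levels were in CP6 (17.7, 19.0, 25.7 and 23.3 CPM; log2 difference 0.32) and osteoclasts (21.3, 15.1, 20.5 and 24.7 CPM; 0.37, SE 0.110, edgeR adjusted p = 0.00280), both under the fold limit. In the PF/F, GNP stood at 40.1, 33.3, 37.0 and 39.2 CPM on 1001 UMIs (0.38, SE 0.0777, edgeR adjusted p = 1.56e-05). This was above all 4 libraries of differentiated granule neurons, which held 26.7, 24.2, 19.8 and 23.0 CPM, and the share of all genes so set apart was not counted. The WT libraries overlapped for all 15 neighbouring PF/F pairs and all 14 PTB pairs. The high WT means in pericytes came from 3 and 4 UMIs of Mrpl40 and from 2 and 3 UMIs of Snap29 in the WT libraries.

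The partners of each gene were counted in the same osteoclast comparison, where 19.8% of all genes tested were called higher and 22.6% lower and the median log2 difference of all 14926 genes was -0.07. Of 11 genes of citrate and lipid metabolism, 4 were called higher and 2 lower, with a median of 0.41. Among the 4 were the citrate synthase Cs (1.11) and the malate dehydrogenases Mdh1 (1.19) and Mdh2 (0.77), while the plasma membrane citrate transporter Slc13a5 (-0.80) and the fatty acid synthase Fasn (-0.77) were lower. Slc25a1 itself stood at -0.52. Acly (0.41), the cytosolic user of exported citrate, and the lipid synthesis gene Acaca (-0.52) were under the fold limit and not called (edgeR adjusted p = 6.61e-06 and 1.61e-12).

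Of 12 tested genes of mitochondrial and thioredoxin redox chemistry, 3 were called higher and 2 lower, with a median of -0.01. Glutathione reductase Gsr (2.16), the cytosolic thioredoxin reductase Txnrd1 (1.21) and the mitochondrial thioredoxin Txn2 (0.82), which is the substrate of Txnrd2, were higher, and Txnrd3 (-0.60) and Nnt (-0.62) lower. Of 5 tested proline genes, Aldh4a1 (0.79), which acts after Prodh in proline breakdown, was higher, and 2 were lower, among them the synthesis enzyme Pycr1 (-0.98). Of 13 SNARE and autophagosome fusion genes, 5 were called higher and 0 lower, with a median of 0.37: Snap23 (1.34), Vps33a (1.27), Stx7 (1.15), Stx8 (1.07) and Nsf (0.68).

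Genes of the mitochondrial ribosome were counted next. Of 49 large subunit genes 6 were called higher and 0 lower (median 0.22), and of 29 small subunit genes 5 and 0 (median 0.25), shares below or near the 19.8% of all genes. The 13 transcripts encoded in the mitochondrial genome had 0 calls by edgeR in either direction, 11 of them at an unadjusted p under 0.05, and a median of -0.21. Of the 13, 10 had an edgeR adjusted p under 0.05, all of these lower and under the fold limit. These counts come from nuclei and precede the authors' correction for ambient RNA. The part of ambient RNA in them was not tested. Among 9 regulators of mitochondrial biogenesis, Ppargc1b stood highest at 5.39 and 698 CPM, with its partner receptor Esrra at 2.40, while Ppargc1a was lower (-0.80). Of the other genes of the syntenic region, 25 of 34 could be tested, with Med15 (1.45) and Serpind1 (1.59) called higher and 6 lower (median -0.23).

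**Figure D4:**
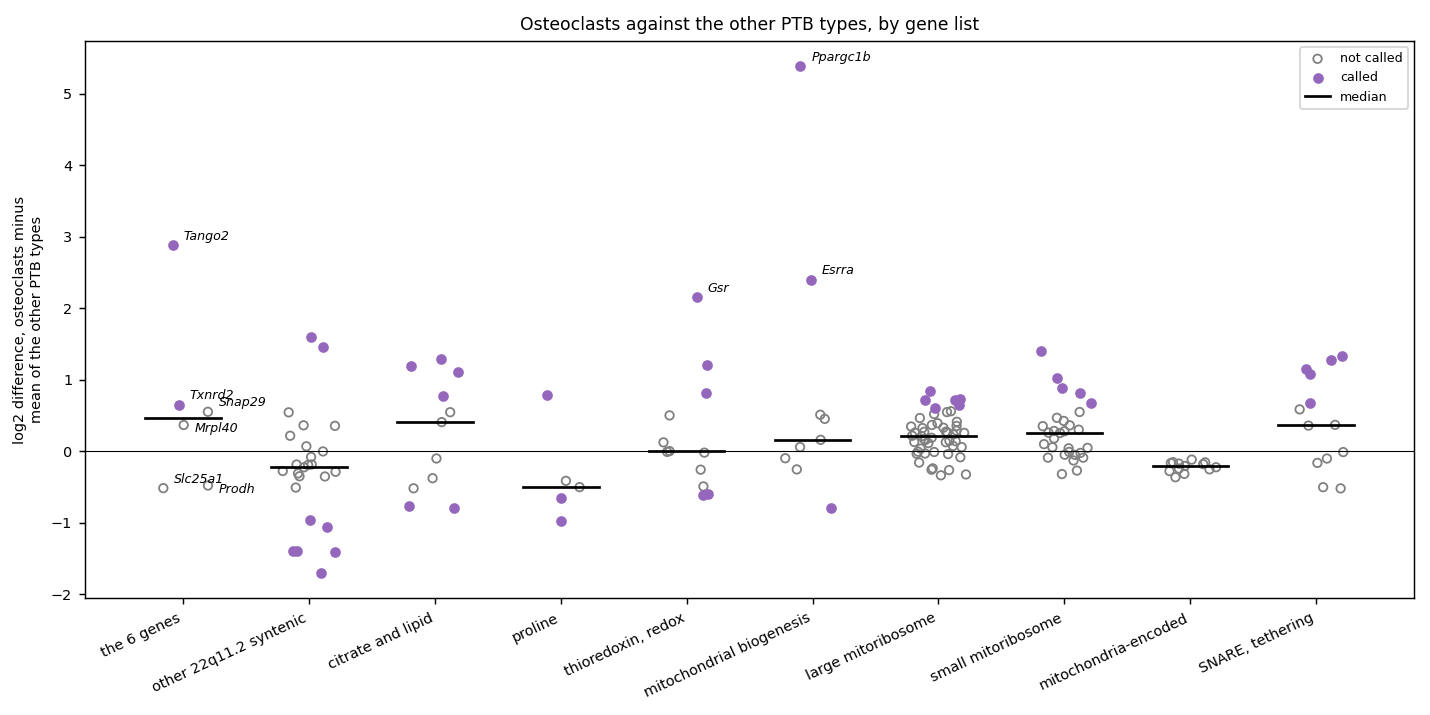
Log2 difference of osteoclasts from the mean of the other PTB types for each gene of the lists, 1 point per gene, called genes filled. Ppargc1b at 5.39 is the highest, the 6 genes run from Slc25a1 at -0.52 to Tango2 at 2.88, and the medians (black bars) of the mitochondrial ribosome lists lie at 0.22 and 0.25.

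The citrate and lipid, redox, SNARE and large subunit lists were also counted in 3 PF/F classes, which were chosen after the calls of the 6 genes there were known. In GABA.interneuron, where 19.3% of all genes were called higher and 14.1% lower, 0 of 49 large subunit genes were higher and 6 lower. Of the 13 SNARE genes there, the neuronal Snap25 (1.48) was higher and Stx8 (-0.62), Vamp8 (-1.93) and Vamp7 (-0.80) were lower. Sod2 (0.76) was higher and Glrx5 (-0.70) lower among 12 redox genes, and Slc13a5 (1.11) and Acaca (0.59) were higher among 11 citrate and lipid genes.

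In GNP, where Mrpl40 stood at 0.38 and 20.2% of all genes were called higher and 12.1% lower, 6 large subunit genes were higher and 0 lower, with a median of 0.40 against 0.14 for all genes. Among the redox genes of GNP, Nnt (1.46), Gsr (0.95) and Txnrd1 (0.77) were higher and Txnrd3 (-0.64) lower. Idh2 (0.64), Fasn (0.67) and the SNARE list's Vps16 (0.63) were higher there, and Slc13a5 (-0.91) and Stx7 (-0.78) lower. In Immune cells, where Snap29 was called, 6 of 13 SNARE genes were higher, Stx7, Stx8, Vamp8, Snap23, Vps33a and Ykt6, and 1, Snap25, lower, against 16.4% and 12% of all genes. Nnt (1.81) and 1 large subunit gene, Mrpl19, were the other higher calls of these lists in Immune cells, and Acaca (-0.81) the other lower call.

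The genes most like each member over the 31 types of both tissues were found by Pearson's r of log2(CPM + 1) of the WT means among 11607 genes. The types share libraries, batches and depth, and rare types weigh as much as common ones, so r is a description. For Tango2 these were Wdr7 (0.863), Atp6v1h (0.840) and Kidins220 (0.786). For Prodh they were Srrm3 (0.944), Xkr6 (0.930) and Gm12709 (0.925). For Mrpl40 they were Sf3b6 (0.904), Lsm4 (0.899) and Snu13 (0.883).

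Slc25a1 was most like Nefm (0.875), Dgkq (0.866) and Mdn1 (0.854), Txnrd2 most like Bud13 (0.874), Sh3bp5l (0.870) and Mtx2 (0.868), and Snap29 most like Lrrc75a (0.769), Gtpbp2 (0.768) and 2210016F16Rik (0.762). Slc25a1 and Txnrd2 lay under the mean CPM that a gene needed to be searched, so neither could appear among the closest genes. None of the other members was among the 3 closest genes of another member. Between members, r over the 31 types ran from -0.675 (Txnrd2 and Snap29) to 0.667 (Slc25a1 and Txnrd2). The value of 0.667 was below that of each gene named for Slc25a1 or Txnrd2. These r values include the pericytes, where Slc25a1 and Txnrd2 had 0 UMIs in both WT libraries.

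The question put to genotype was whether the other genes of the region change in level when only Tbx1 is targeted. Tbx1 itself was at 38.9, 26.3, 39.4 and 35.7 CPM over the annotated PTB nuclei, lower in the Tbx1+/- library of both batches, by -0.56 and -0.15. The edgeR quasi-likelihood log2 change was -0.34 (SE 0.167, 95% interval -0.76 to 0.08, unadjusted p = 0.0951), and with the replicate number as a block -0.36 (SE 0.126, unadjusted p = 0.0272, adjusted p = 0.944). In the PF/F Tbx1 had 38 UMIs in all. Which part of Tbx1 the mutant allele lacks is not given in the sources used here, and a 3′ tag outside it would check nothing.

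None of the 6 genes was called between genotypes. In the PTB, 0 of 20250 genes were called (0%) by edgeR and 0 by DESeq2, although 217 and 114 genes had a raw p under 0.05. For the PF/F, 0 of 20756 passed (0%) with edgeR and 0 with DESeq2, and the raw p was under 0.05 for 99 and 31 genes. A change of cell make-up and a change of RNA per cell cannot be told apart in these sums, and an exact permutation test of 2 against 2 libraries cannot go below p = 0.33.

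Slc25a1 had the largest fitted change in the PTB, 0.27 (SE 0.408, 95% interval -0.76 to 1.30), and was higher in the Tbx1+/- library of both batches, by 0.30 and 0.25. Leaving out 1 library gave -0.25 to 0.78, with the direction reversed in 2 of 4 runs, without WT replicate 2 (-0.09) and without Tbx1+/- replicate 1 (-0.25). Those runs held no batch term and left the batches unequal between genotypes. Slc25a1 differed between the PTB batches by -0.85 in WT and -0.91 in Tbx1+/- libraries, so the reversals cannot be read as a change of direction within batches. With the replicate block its change was also 0.27 but with an SE of 0.124 (unadjusted p = 0.0678, adjusted p = 0.953). Prodh was lower in the Tbx1+/- library of both batches in both tissues, by -0.24 and -0.07 in the PTB and by -0.30 and -0.09 in the PF/F. The fitted changes of Prodh were -0.15 (SE 0.173) and -0.17 (SE 0.130). Leaving out 1 library gave -0.33 to 0.02 for Prodh in the PTB and -0.31 to -0.06 in the PF/F, and with the block the PF/F value was -0.18 (SE 0.0778, unadjusted p = 0.0498, adjusted p = 1.00).

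Snap29 was lower in the Tbx1+/- library of both batches in the PF/F, by -0.26 and -0.07 (fitted change -0.15), and moved by 0.22 and -0.05 in the PTB. Mrpl40 moved by -0.07 and 0.01 in the PTB and by -0.18 and 0.18 in the PF/F, and Txnrd2 by 0.16 and -0.16 and by -0.07 and 0.28. Tango2 had 95% intervals of -0.19 to 0.36 in the PTB and -0.24 to 0.30 in the PF/F. Snap29 had -0.25 to 0.43 and -0.47 to 0.18. All 12 intervals lay above -1, the log2 change that the loss of 1 of 2 equal copies would give. They came from fits without a batch term. A change of that size lay outside the interval of each gene in each tissue. The interval of the targeted gene Tbx1 in the PTB, -0.76 to 0.08, lay above -1 as well. An interval above -1 therefore cannot tell whether a gene kept both copies.

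**Figure D5:**
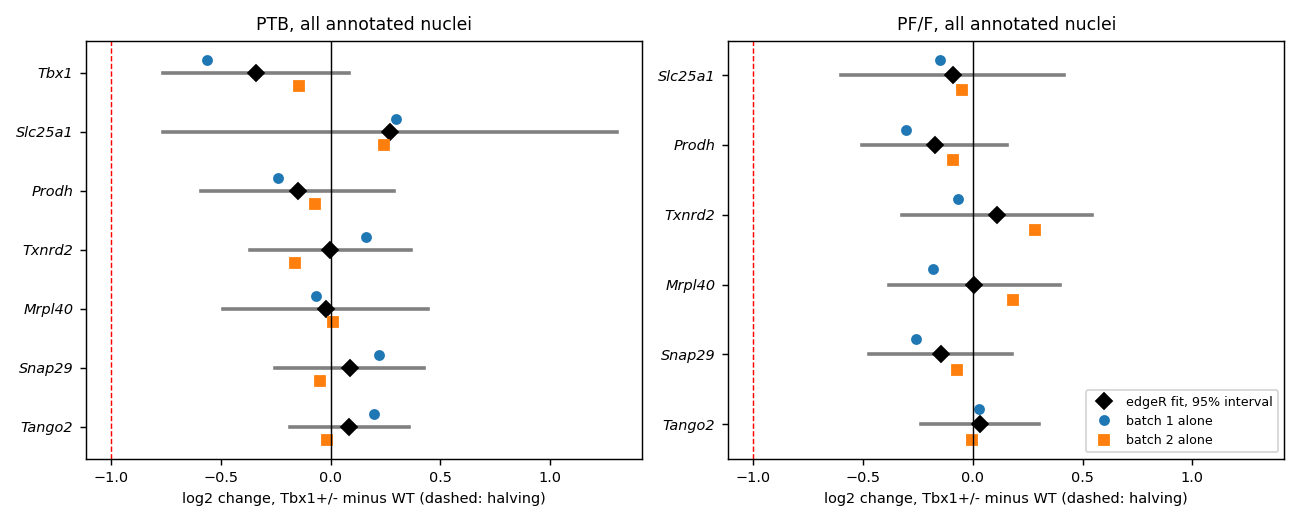
Log2 change of Tbx1+/- against WT over all annotated nuclei for the 6 genes in each tissue and for Tbx1 in the PTB, with the edgeR estimate and its 95% interval and the change within each batch; the dashed line marks -1. All 12 intervals of the 6 genes reach across 0 and stay above the dashed line, as does the interval of Tbx1 in the PTB. The fits held no batch term.

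The difference of the genotype effect between the tissues was called for 0 of 22148 genes (0%) by edgeR, while 199 had a raw p under 0.05. For the 6 genes this difference, PF/F minus PTB, ran from -0.37 for Slc25a1 to 0.11 for Txnrd2. Within the annotated types, 80 gene and type pairs could be tested in the PTB and 63 in the PF/F, and edgeR and DESeq2 called 0 of them, against 0% of all pairs in the PTB and 0.000598% in the PF/F. At an unadjusted p under 0.05 there were 0 in the PTB and 1 in the PF/F. The 95% interval lay above -1 in 60 and 52 of these pairs, and in the others it reached -1 or below.

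In osteoclasts, where Tango2 had its highest level, the genotype change was -0.03 (SE 0.121, 95% interval -0.32 to 0.26). The direction within batches was counted over types as a description. Prodh was lower in both batches in 9 of 16 PF/F types and higher in both in 0, and lower in both in 9 of 15 PTB types and higher in both in 3. Of all gene and type pairs, 25.6% were lower in both batches in the PF/F and 22.9% in the PTB, and the types of a library are not independent.

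Slc25a1 was higher in both batches in 7 of 15 PTB types and lower in both in 1, against 25.3% and 22.9% of all pairs, and Tango2 higher in 5 and lower in 0. The partner lists gave 0 calls by edgeR between genotypes in both tissues, and 0 of their genes had an unadjusted p under 0.05. The median change of the 49 large mitoribosome genes was 0.06 in the PTB and -0.03 in the PF/F. The 13 transcripts of the mitochondrial genome had medians of -0.24 and 0.09, and the part of ambient RNA in these values was not tested.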

How the data were processed

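Nuclei of the PTB and PF/F were profiled with 10x 3′ chemistry, and the authors aligned and counted the reads with Cell Ranger 7.0.0 in intron mode on mm10. The deposited matrices hold unnormalised UMI counts for every barcode that Cell Ranger kept, before the authors' SoupX correction and limits on nuclei, which went into their deposited annotation of types. No doublet calls were added. Results that need some genes or classes of nuclei are not reported here. The 6 genes, the partner lists and the markers were chosen with earlier results of these data known.

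UMI counts were summed per library and annotated type with Python 3.11.15 (pandas 2.3.3) and tested in R 4.3.3 with edgeR 4.0.16 (filterByExpr, TMM, quasi-likelihood test, Benjamini-Hochberg adjustment over all genes of a fit). Types needed at least 10 nuclei in each of the 4 libraries, counted before any alternative choice of nuclei. Genotype fits held no covariate. Type fits held the library as a block. Alternatives were DESeq2 1.42.0, RLE factors, no filter, WT libraries only, no library block, nuclei with at least 2000 genes, leaving out the 8% of nuclei with the most UMIs, types with at least 50 nuclei, each library left out in turn, the replicate block, and pericytes left out. The genes named were the 6, Tbx1, the 3 genes most like each member among those with a mean of at least 10 CPM, and list genes called between genotypes, of which there were 0; the partner genes named in the type comparisons were chosen after their values were seen. Limits for 0 UMIs are 3 counts and cover counting error only, as do the UMI totals given.

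Replicate numbers mark the study's batches. Deviations from the group means of same-numbered libraries correlated at 0.566 in the PTB (16224 genes) and 0.700 in the PF/F (16790 genes), so the numbers pair the samples. The genotype intervals and counts come from fits without this pairing, save where the replicate block is named. On simulated counts with 200 genes changed by 1 on the log2 scale, the edgeR genotype fit recovered 56.0% over the PTB sums (20250 genes), 64.5% over the PF/F sums (20756 genes) and 29.5% in osteoclasts (13191 genes), and the type fit 90.5% in osteoclasts (14926 genes) and 62.5% in GABA.interneuron (15906 genes). Promoter sequences were found for all 6 genes in RefSeq.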

Additional observations from a re-analysis of the deposited data

Results flagged for a closer look

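Tango2 was also measured in PTB barcodes that the deposited annotation leaves out and that no comparison above uses. Among them, 2262 barcodes carried at least 3 UMIs of immune markers, and their summed Tango2 level was 67.8 ± 7.88 CPM (SD, n = 4), with 77.7 and 70.4 CPM in the WT and Tbx1+/- libraries of batch 1 and 60.0 and 63.1 CPM in those of batch 2. The other 29839 barcodes outside the annotation held 49.9 ± 4.55 CPM, from 43.2 to 53.3 CPM, and the 2 sets did not overlap. Signal in unused barcodes above that of their neighbours drew attention to this value, and the difference was not tested. A fixed cut of 3 marker UMIs also favours barcodes with many UMIs. In the WT library of batch 1, the first set held 5624618 UMIs in 837 barcodes and the other 39299742 in 11054. The part of depth was not tested, and the share of all genes that set the barcodes apart in this way was not counted. The osteoclast marker Ctsk stood at 4658, 1466, 637 and 1702 CPM in the first set in the same order, and its part in the Tango2 level was not tested. In the PF/F the corresponding levels of Tango2 were 42.7 ± 4.52 CPM in 129 barcodes and 40.9 ± 3.36 CPM in 9592.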

How the results depend on the processing

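Of the 33 called gene and type pairs, 12 kept their call under every alternative run, among them Tango2 in osteoclasts, matured chondrocytes, CP3, CP5 and RL.early and Prodh in GABA.interneuron, Purkinje cells, CP6, CT2 and CT1. Over all alternatives, 333 type differences kept their call, 67 lost it and 2 reversed, those of Slc25a1 (-0.45) and Txnrd2 (-1.29) in the Progenitors class without the 8% of nuclei with the most UMIs, where that class kept 8, 2, 6 and 24 nuclei, under the limit of 10 in 3 libraries. PF/F pairs called higher fell from 15 to 6 when types needed 50 nuclei in each library, which leaves fewer types to test, and pairs called lower from 8 to 4 with WT libraries only and 3 with nuclei of at least 2000 genes, where the cause was not tested. Leaving out 1 library gave 11 to 14 PF/F pairs higher and 6 to 7 lower, and 4 to 6 PTB pairs higher and 4 to 6 lower. With pericytes left out, 10 PF/F pairs were higher and 10 lower.

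Between genotypes 0 genes over all annotated nuclei of a tissue and 0 of the 6 genes within types were called under every alternative run. This includes the replicate block, which changed no call of the 6 genes. With the block, 1043 PTB and 626 PF/F genes stood at an unadjusted p under 0.05. Small genotype changes reversed sign: Txnrd2 in the PTB stood at 0.00507 with RLE factors, 0.00695 with DESeq2, 0.00162 with the replicate block and 0.0158 without the 8% of nuclei with the most UMIs. With nuclei of at least 2000 genes, Mrpl40 stood at 0.0155 in the PTB and -0.0102 in the PF/F and Tango2 at -0.0151 in the PF/F, and without the 8% of nuclei with the most UMIs Mrpl40 stood at -0.0203 in the PF/F. The causes were not tested.

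Leaving out 1 library, the PTB change ran from -0.25 to 0.78 for Slc25a1, from -0.22 to 0.16 for Mrpl40, from -0.33 to 0.0204 for Prodh, from -0.0880 to 0.0954 for Txnrd2 and from -0.00311 to 0.19 for Tango2. The PF/F change ran from -0.28 to 0.12 for Slc25a1, from -0.17 to 0.20 for Mrpl40, from -0.0696 to 0.32 for Txnrd2 and from -0.0112 to 0.0727 for Tango2. The difference between tissues ran from -0.88 to 0.16 for Slc25a1, from -0.16 to 0.23 for Mrpl40, from -0.20 to 0.16 for Prodh, from -0.0440 to 0.27 for Txnrd2 and from -0.16 to 0.0212 for Tango2. None of these runs held a batch term. Levels in pericytes, endothelial cells and the Progenitors class rest on few nuclei. The genotype intervals rest on 2 libraries per genotype and on fits without a batch term, so differences between batches enter their width. For Slc25a1 the difference between tissues had an SE of 0.50 in the main fit and 0.154 with the replicate block.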
